A study of Homo sapiens with 9 samples.

Results

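The collagen genes of AC16 cells were followed over a treatment with CDDO-Me. Members were all genes whose symbol reads COL, a number, A and a number. Of the 58299 genes counted, 44 carried such a symbol, and 31 of them had 10 or more counts in at least 3 of the 9 libraries. AC16 is a proliferating human line made by fusing adult ventricular heart cells with transformed fibroblasts. CDDO-Me, also named bardoxolone methyl, is a drug that frees NRF2, a transcription factor of antioxidant genes, from its repressor KEAP1; the series asks what this does in these cells. Cells had 100 nM CDDO-Me for 72 h (3 samples), 100 nM CDDO-Me for 24 h (3 samples) or the vehicle, 0.1% DMSO, for 72 h (3 samples). The labels give no genetic change in any group, and no 24 h vehicle was analysed here, so that at 24 h the agent and the time in culture cannot be told apart.

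Collagens are secreted proteins whose chains wind into a triple helix. Fibril-forming types I, III and V give connective tissue its tensile strength, type IV builds the network of basement membranes, and type VI makes beaded microfibrils that tie cells to the matrix around them. In the heart most collagen comes from fibroblasts, and an excess of it stiffens the muscle. Before export the chains are hydroxylated and glycosylated in the endoplasmic reticulum and folded with chaperones; outside the cell, propeptides are cut off and lysyl oxidases cross-link the fibrils.

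By class, the 31 genes held 10 of 11 fibril-forming chains, 6 of 6 chains of the basement membrane network (type IV), 3 of 5 of the beaded filament (type VI) and 4 of 10 of the fibril-associated class. All 3 short chain collagens and both multiplexins passed (2 of 2), as did the anchoring fibril gene COL7A1 (1 of 1), 2 of 4 transmembrane collagens and none of the 2 others. Of the 13 genes under the minimum, COL6A5, COL9A1 and COL22A1 had 0 counts in all libraries, where a count of 0 allows up to 3 counts. The highest count of any library was 18 for COL6A6, 9 for COL9A3, 5 for COL19A1, COL20A1 and COL28A1, 3 for COL21A1, 2 for COL2A1 and COL23A1, and 1 for COL25A1 and COL26A1. COL10A1 lies just inside the minimum, with 10 or more counts in exactly 3 libraries and a highest count of 14. It was too low for the test across genes, which covered the other 30.

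Libraries held 16898977 to 27910031 counts. The 72 h libraries differed from each other by a biological coefficient of variation of 2.73 to 3.31%. In the 24 h group replicate 3 was far from its partners (20.9 and 19.9%, against 6.38% between replicates 1 and 2). DMSO replicate 1 was less far from its partners (12.1 and 13.9%, against 7.79% between these). Results are therefore given with and without these libraries. Fibroblast markers were present (0 of 9 averaged under 1 CPM; summed 2437 to 2493 at 72 h, 2356 to 2649 at 24 h and 2576 to 2623 in DMSO). That sum is mostly VIM, and single markers differed between groups and are given beside the results they moved with. Of 12 cardiac muscle markers 11 averaged under 1 CPM, and 6 (MYH6, MYH7, MYL2, NKX2-5, RYR2 and PLN) had 0 counts in all libraries; GATA4 was the exception. All 4 endothelial and both leukocyte markers (2 of 2) averaged under 1 CPM over all libraries, with PTPRC at a mean of 1.06 CPM at 24 h and 1.19 in DMSO.

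The stretches of DNA before 4 of these genes are shown because COL4A4, COL6A3 and COL6A2 carry the results below. A further reason is that CDDO-Me acts through NRF2, which binds the antioxidant response element together with partner proteins. Sequences are from RefSeq (GRCh38.p14), 5′ to 3′ on the strand named, cut to bases before the first base of the gene in the deposited table. Capitals mark matches on either strand of the GC box GGGCGG, of the motif CCAAT, of the TATA box with the letters TATAAA and of TGACNNNGC, the core of the antioxidant response element; no match here overlaps another. COL4A3 and COL4A4 are read in opposite directions from starts 112 bases apart, and all 111 bases between them are given (chr2:227164454-227164564, plus strand). The other windows are chr21:46097862-46098096 (plus strand, COL6A2), chr2:237414376-237414414 (minus strand, COL6A3) and chrX:108439588-108439837 (plus strand, COL4A5).
COL4A3 and COL4A4: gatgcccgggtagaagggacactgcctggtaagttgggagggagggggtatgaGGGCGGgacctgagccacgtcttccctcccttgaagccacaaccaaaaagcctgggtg
COL6A2: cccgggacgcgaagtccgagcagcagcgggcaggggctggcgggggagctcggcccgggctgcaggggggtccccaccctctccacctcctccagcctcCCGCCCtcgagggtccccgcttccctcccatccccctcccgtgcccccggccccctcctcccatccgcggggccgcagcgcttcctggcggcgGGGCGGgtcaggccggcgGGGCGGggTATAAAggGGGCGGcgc
COL6A3: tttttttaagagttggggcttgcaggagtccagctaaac
COL4A5: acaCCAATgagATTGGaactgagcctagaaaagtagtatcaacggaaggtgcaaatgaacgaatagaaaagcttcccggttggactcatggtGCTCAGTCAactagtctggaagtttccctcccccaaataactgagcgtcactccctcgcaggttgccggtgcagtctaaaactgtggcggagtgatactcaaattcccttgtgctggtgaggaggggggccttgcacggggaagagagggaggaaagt

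The RefSeq table held 24 of the 31 genes. In the 250 bases before the RefSeq start, TGACNNNGC was found for 2 of these 24 (8.33%), against 11.0% of 27305 promoters in the table. Both matches are the same site, TGACTGAGC at chrX:108439680-108439688, since COL4A5 and COL4A6 also start head to head. The AP-1 site TGANTCA was found for 0 of 24, against 6.60% of all promoters. GC boxes were found for 15 of 24 (62.5%, against 42.3%), CCAAT for 7 (29.2%, against 33.0%) and TATAAA for 4 (16.7%, against 11.1%). The median share of the letters G and C was 66.2% in these 24 promoters, against 58.0% in all promoters. Its part in the share with GC boxes was not tested. COL6A2 holds 4 GC boxes and a TATA box in its window. No match was found in the 250 bases before the RefSeq starts of COL6A3 and COL4A4, which lie inside the genes as deposited; that window of COL4A4 does not reach the GC box printed above, which is counted for COL4A3. These matches describe letters, not bound sites.

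Collagen RNA was abundant in every group. All 44 collagen genes together, those under the minimum included, took 2.05 ± 0.03% of the counts after CDDO-Me for 72 h. They took 2.14 ± 0.57% after 24 h and 1.95 ± 0.10% in DMSO (SD, n = 3 each). The 24 h libraries held 2.53, 2.40 and 1.48%, the last in replicate 3, so the lowest and the highest of all libraries were both in that group. Levels below are normalised CPM, counts relative to the size of the library, and CPM per kilobase of exon (CPM per kb) wherever genes are compared with each other. Over all libraries COL1A1 and COL1A2, the chains of type I collagen, stood at 947 and 289.7 CPM per kb. The type III chain COL3A1 was at 259.6, COL6A1 at 163, COL6A2 at 149.8 and the type V chain COL5A2 at 146 CPM per kb. Type I took 64.3 ± 0.42% of the collagen counts at 72 h, 59.0 ± 2.46% at 24 h and 60.8 ± 1.20% in DMSO (SD, n = 3 each). By mean CPM, COL1A1 ranked 2nd, COL1A2 12th and COL3A1 25th of the 14965 genes tested, and the 12th collagen gene in this order, COL8A1, was at rank 578.

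**Figure D1:**
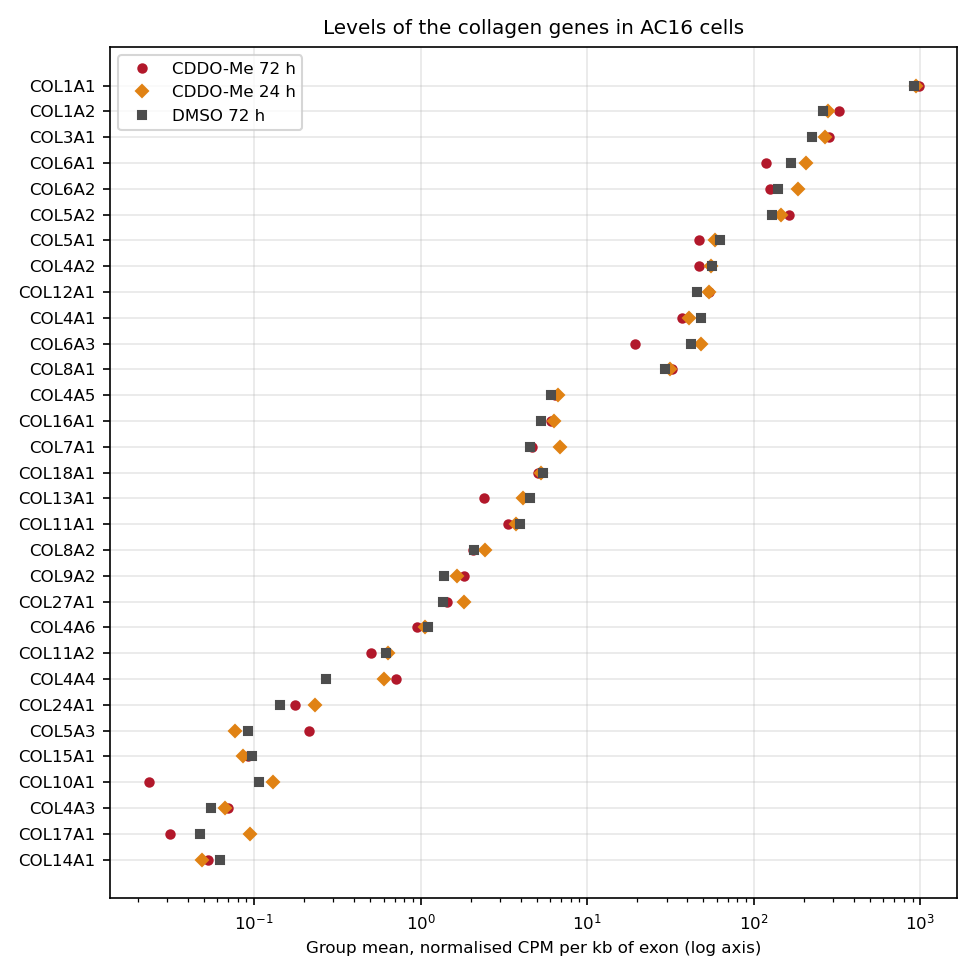
Mean normalised CPM per kilobase of exon of each of the 31 collagen genes (log axis) after CDDO-Me for 72 h, CDDO-Me for 24 h and DMSO for 72 h, 3 libraries each, ordered by the mean over all libraries. Levels ran from 947 CPM per kb for COL1A1 to 0.0547 for COL14A1, and most symbols of a gene lie close together; COL6A3, COL13A1, COL4A4 and COL5A3 are among those that spread.

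After 72 h of CDDO-Me, 1 of the 30 collagen genes tested rose (COL4A4) and 1 fell (COL6A3), at an adjusted p under 0.05 in edgeR's quasi-likelihood test. Over all 14965 genes 2.89% were called higher and 3.13% lower, so the collagen genes were called at about the rate of all genes. Their median log2 fold change was 0.01, against −0.00 over all genes, and 4 were higher and 5 lower at an unadjusted p under 0.05. At 24 h 1 collagen gene rose (COL4A4, background 0.969%) and 0 fell (background 1.18%); at an unadjusted p under 0.05 there were 3 and 0, and DESeq2 called 2 and 0. The median was 0.16 there, against 0.01 over all genes. Between the times, 72 h against 24 h, 0 genes were called higher (background 0.448%; 1 at an unadjusted p under 0.05, 0 with DESeq2) and 1 lower (COL6A2, background 0.568%), with a median of −0.10 against −0.01. The shares of all genes are for the adjusted p in edgeR. None stands beside the counts at an unadjusted p or with DESeq2, so those counts do not compare collagen genes with all genes. All comparisons with DMSO share its 3 libraries, and both comparisons with 24 h share those. In bulk RNA, fewer cells that make a collagen and less of its RNA per cell cannot be told apart.

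These counts changed when CDDO-Me 24 h replicate 3 was left out. Without it, 4 collagen genes were called higher and 4 lower at 72 h, of 31 tested, against 6.26 and 6.62% of all genes. At 24 h 10 were called higher and 0 lower without it (background 5.71 and 5.11%), and between the times 1 was higher and 9 lower (background 5.19 and 6.84%). These 9 include COL10A1, which passed the count minimum only through libraries at 24 h and in DMSO. CDDO-Me 24 h replicate 3 is in 2 of the 3 comparisons and enters the estimate of spread of the other. Leaving out DMSO replicate 1 as well gave 18 higher and 0 lower at 24 h of 30 tested (background 12 and 10.8%) and 1 higher and 17 lower between the times (background 10.5 and 12.3%), with 2 libraries in each of those groups. At 72 h the counts were then 7 higher and 6 lower (background 8.72 and 9.2%). Leaving out DMSO replicate 1 alone gave 1 higher and 0 lower at 72 h (background 2.3 and 2.45%), 1 and 0 at 24 h (1.11 and 1.19%), and 0 and 2 between the times (0.68 and 0.903%). These libraries were left out because they stood apart in the same data, collagen genes included. The counts and p-values without them depend on that choice and are no independent support.

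In replicate 3 of the 24 h group, 26 of 30 collagen genes lay below the mean of replicates 1 and 2, with a median difference of −0.54 log2. Over all genes 51.7% lay below and the median was −0.01. A gap of more than 0.5 log2 downward was present for 16 of the 30, against 13.6% of all genes. COL3A1 lay lowest (−1.70), followed by the type XI chains COL11A2 (−1.45) and COL11A1 (−1.28), COL16A1 (−1.15) and COL6A3 (−1.07), while COL4A4 (−0.09), COL8A1 (−0.01) and COL5A3 (−0.01) stayed near the other replicates. Of 9 fibroblast markers 7 also lay below their level in the other replicates, 6 of them by more than 0.5 log2. DCN, a matrix proteoglycan, held 17.3 CPM in that library, against 66.3 and 71.2 in replicates 1 and 2. The proteoglycan LUM held 34.5 CPM there, against 72.1 and 81.2, and the fibroblast protease FAP 23.1 CPM, against 49.6 and 52.8. VIM and TCF21 were the 2 that lay above. In DMSO replicate 1 most collagen genes lay above its partners: 7 of 30 were below their mean, with a median of 0.13 log2. Over all genes 49.1% were below it and the median was 0.00. DCN held 14.5 CPM there, against 34.5 and 45.0 in DMSO replicates 2 and 3, and LUM 32.3 CPM, against 57.5 and 76.6. Of 9 fibroblast markers 5 lay below in DMSO replicate 1, 2 of them by more than 0.5 log2. The part of these markers in the collagen levels, and what sets these libraries apart, were not tested.

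**Figure D2:**
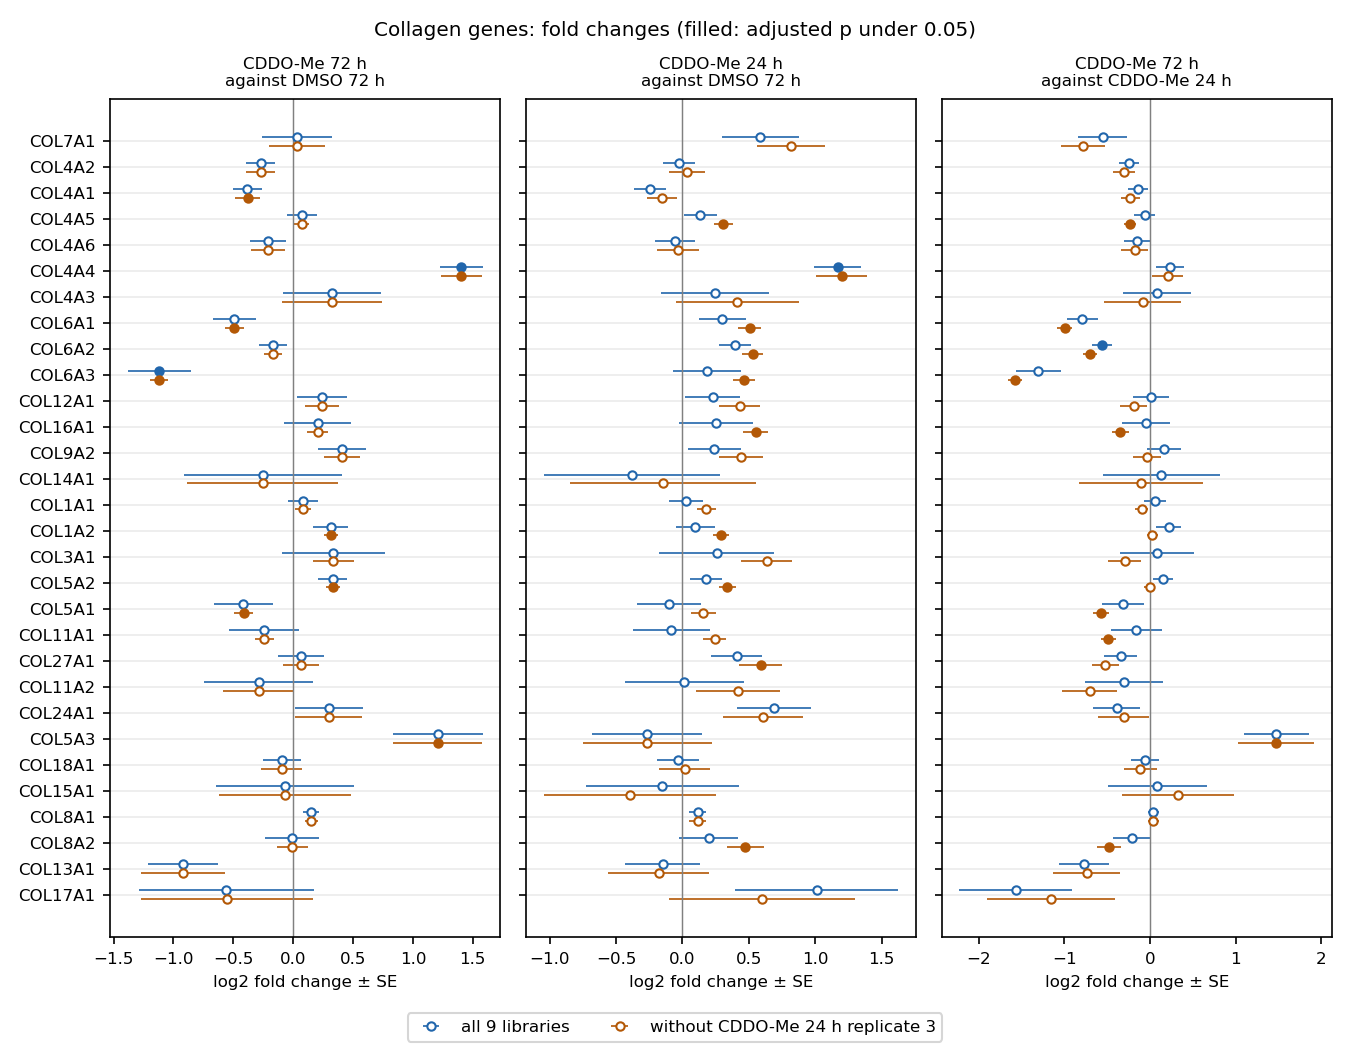
Log2 fold changes (points, with SE as bars) of the 30 collagen genes tested, for CDDO-Me 72 h against DMSO, CDDO-Me 24 h against DMSO and CDDO-Me 72 h against 24 h, with all 9 libraries (blue) and without CDDO-Me 24 h replicate 3 (orange); filled points had an adjusted p under 0.05. With all libraries 4 points are filled, COL4A4 in 2 panels, COL6A3 and COL6A2 in 1 each; without replicate 3 there are more, most of them right of 0 at 24 h and left of 0 between the times.

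COL4A4 encodes the α4 chain of type IV collagen, which pairs with the α3 and α5 chains in the basement membranes of the kidney glomerulus, lung and inner ear. The gene lies at chr2:227002711-227164453 on the minus strand (ENSG00000081052), next to the 111 bases printed above. It stood at 7.99, 7.32 and 6.25 CPM after 72 h, 6.23, 6.28 and 5.85 CPM after 24 h, and 2.89, 2.40 and 2.85 CPM in DMSO. All 6 treated libraries were above all 3 vehicle libraries, and CDDO-Me 24 h replicate 3 was with its group. The rise was 2.64-fold at 72 h (log2 1.40 ± 0.18 SE, adjusted p = 0.000239) and 2.25-fold at 24 h (log2 1.17 ± 0.18, adjusted p = 0.00275). Between the times COL4A4 was at 0.23 ± 0.17 (adjusted p = 0.588). Both calls held in 19 of 19 alternatives, with log2 fold changes of 1.32 to 1.49 at 72 h and 1.09 to 1.25 at 24 h. It remained a minor chain, at 0.713 CPM per kb at 72 h, 0.607 at 24 h and 0.269 in DMSO.

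COL4A3, the α3 chain that starts 112 bases away on the other strand, stood at 0.678, 0.584 and 0.641 CPM at 72 h, 0.64, 0.709 and 0.475 CPM at 24 h, and 0.465, 0.417 and 0.629 CPM in DMSO. These ranges overlap, and with at most 14 counts in a library the test had little to work with (log2 0.33 ± 0.41 at 72 h, adjusted p = 0.743; 0.25 ± 0.41 at 24 h, adjusted p = 0.859). Reads of this gene were too few to say whether it moved with COL4A4. COL4A3 also shares 120 exon bases, 1.32% of its own, with MFF-DT on the opposite strand, which held up to 31 counts. The libraries keep no strand, so reads in that stretch cannot be told apart. COL4A5, the α5 chain, was at 0.07 ± 0.13 at 72 h (adjusted p = 0.824) and 0.14 ± 0.13 at 24 h (adjusted p = 0.724). It held 76.0, 75.5 and 75.8 CPM at 72 h, 87.4, 91.4 and 59.3 CPM at 24 h and 74.4, 70.5 and 71.4 CPM in DMSO, so that the 24 h group spans the others. Leaving out CDDO-Me 24 h replicate 3, the 24 h value was 0.31 ± 0.07 (adjusted p = 0.00899). Its head-to-head neighbour COL4A6, the α6 chain, was at −0.21 ± 0.15 at 72 h (adjusted p = 0.504) and −0.06 ± 0.15 at 24 h (adjusted p = 0.919).

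COL4A1 and COL4A2 encode the chains of the common type IV network found in nearly all basement membranes. They also start head to head, on chromosome 13, and were far above the other type IV genes, at 42.2 and 53.0 CPM per kb. COL4A1 stood at 306, 306 and 303 CPM at 72 h, 367, 349 and 290.2 CPM at 24 h, and 471, 394 and 326 CPM in DMSO. The 72 h libraries lay below all DMSO libraries, but DMSO itself ranged widely, and the log2 fold change of −0.38 ± 0.12 missed the threshold (adjusted p = 0.0779). It passed in 8 of 19 alternatives, with values of −0.50 to −0.24. COL4A2 held 412, 409.7 and 402 CPM at 72 h, 518, 491 and 441 CPM at 24 h, and 600.5, 479 and 398 CPM in DMSO, and was at −0.27 ± 0.12 at 72 h (adjusted p = 0.230), with overlapping groups. Their ratio per kb was 0.795 ± 0.005 at 72 h, 0.736 ± 0.032 at 24 h and 0.860 ± 0.022 in DMSO (SD, n = 3 each), lowest in the 24 h and highest in the DMSO libraries.

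Type VI collagen is assembled from α1, α2 and α3 chains, encoded by COL6A1 and COL6A2 in a row on chromosome 21 and by COL6A3 on chromosome 2. COL6A3 (chr2:237324003-237414375, minus strand, ENSG00000163359) stood at 385, 391 and 372 CPM after 72 h, 1157, 1135 and 545 CPM after 24 h, and 949, 822 and 723 CPM in DMSO. Every 72 h library was below every 24 h and DMSO library, and 24 h replicate 3 lay between. At 72 h the gene fell 2.17-fold (log2 −1.12 ± 0.26 SE, adjusted p = 0.0479).

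This call lies close to the threshold. It held in 9 of 19 alternatives and ended with limma-voom (adjusted p = 0.0619), upper quartile size factors (0.0523) and no filter on low counts (0.145). The same happened when 1 library was left out, be it of the 72 h group, of DMSO or replicate 1 at 24 h (0.0539 to 0.162). Across these alternatives the log2 fold change itself ran from −1.21 to −1.01. Without CDDO-Me 24 h replicate 3, which is in neither of the groups compared, it was −1.12 ± 0.08 (adjusted p = 1.05e-08), and with only the 2 groups in the fit the adjusted p was 7.78e-07. Single cell type markers moved with the same groups. Of 9 fibroblast markers 3 were called lower at 72 h and 0 higher, against 3.13 and 2.89% of all genes. POSTN, a matrix protein of activated fibroblasts, held 3.73, 4.62 and 4.06 CPM at 72 h, 27.6, 33.6 and 20.4 CPM at 24 h, and 41.9, 36.5 and 46.6 CPM in DMSO, and was 10.1-fold lower at 72 h (log2 −3.33 ± 0.18, adjusted p = 1.17e-07, called in 19 of 19 alternatives). FAP averaged 21.7 CPM at 72 h, 41.8 at 24 h and 52.8 in DMSO (72 h against DMSO −1.28 ± 0.28, adjusted p = 0.0294), and PDGFRA 19.9 CPM at 72 h, 30.1 at 24 h and 33.6 in DMSO (−0.76 ± 0.19, adjusted p = 0.0376). Both calls were lost when any DMSO or 72 h library was left out, with adjusted p up to 0.133 for FAP and 0.154 for PDGFRA over the alternatives. DCN, LUM, VIM, THY1, PDGFRB and TCF21 did not pass. The summed level of 4 epithelial markers, mostly KRT18, was 101 to 109 CPM at 72 h, 127 to 186 at 24 h and 196 to 227 in DMSO, and that of 5 smooth muscle markers was 213 to 232 CPM at 72 h, 180 to 269.8 at 24 h and 263 to 434 in DMSO. The epithelial sum moved through KRT18 and KRT19, while CDH1 (means of 1.36 CPM at 72 h, 1.60 at 24 h and 1.51 in DMSO) and EPCAM (0.344 CPM at 72 h, 0.517 at 24 h and 0.303 in DMSO) did not follow. Of 3 epithelial markers tested, 2 were called lower and 0 higher at 72 h (background 3.13 and 2.89%). The smooth muscle sum was mostly TAGLN, and CNN1 went the other way, with a mean of 42.6 CPM at 72 h, against 33.0 in DMSO. MYOCD averaged 2.56 CPM at 72 h, 4.46 at 24 h and 15.9 in DMSO, and ACTA2 averaged 5.20, 4.36 and 10.2 CPM. Of the 5 smooth muscle markers 2 were called lower and 1 higher at 72 h (background 3.13 and 2.89%), and 2 lower and 0 higher at 24 h (background 1.18 and 0.969%). The part of these markers in the fall of COL6A3 was not tested.

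COL6A1 (chr21:45981737-46005050, plus strand, ENSG00000142156) held 650.3, 617 and 634 CPM at 72 h, 1323, 1209 and 755 CPM at 24 h, and 1012, 891 and 769 CPM in DMSO. The groups at 72 h and in DMSO did not overlap, yet −0.49 ± 0.18 did not pass (adjusted p = 0.156). Without CDDO-Me 24 h replicate 3 the value was −0.49 ± 0.08 (adjusted p = 0.00038). COL6A2 (chr21:46098097-46132849, plus strand, ENSG00000142173) held 689, 648 and 681 CPM at 72 h, 1126, 1058 and 793 CPM at 24 h, and 855, 749 and 664 CPM in DMSO. Its 72 h and DMSO libraries overlapped (−0.17 ± 0.12, adjusted p = 0.504).

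Per kb, the ratio of COL6A1 to COL6A3 was 6.21, 5.79 and 6.26 at 72 h, 4.20, 3.92 and 5.09 at 24 h, and 3.92, 3.98 and 3.91 in DMSO. The DMSO libraries, replicate 1 included, had an SD of 0.041, and all 72 h libraries were above every other library. The ratio of COL6A2 to COL6A3 was 6.53, 6.03 and 6.67 at 72 h, 3.55, 3.40 and 5.31 at 24 h, and 3.28, 3.32 and 3.34 in DMSO. Here too 24 h replicates 1 and 2 were near DMSO, while replicate 3 was nearer to the 72 h libraries. COL6A1 to COL6A2 was 0.950 ± 0.010 at 72 h, 1.10 ± 0.12 at 24 h and 1.19 ± 0.02 in DMSO (SD, n = 3 each). Ratios within a library do not depend on its normalisation, and they show unequal change without saying which chain changed; they were not tested.

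**Figure D3:**
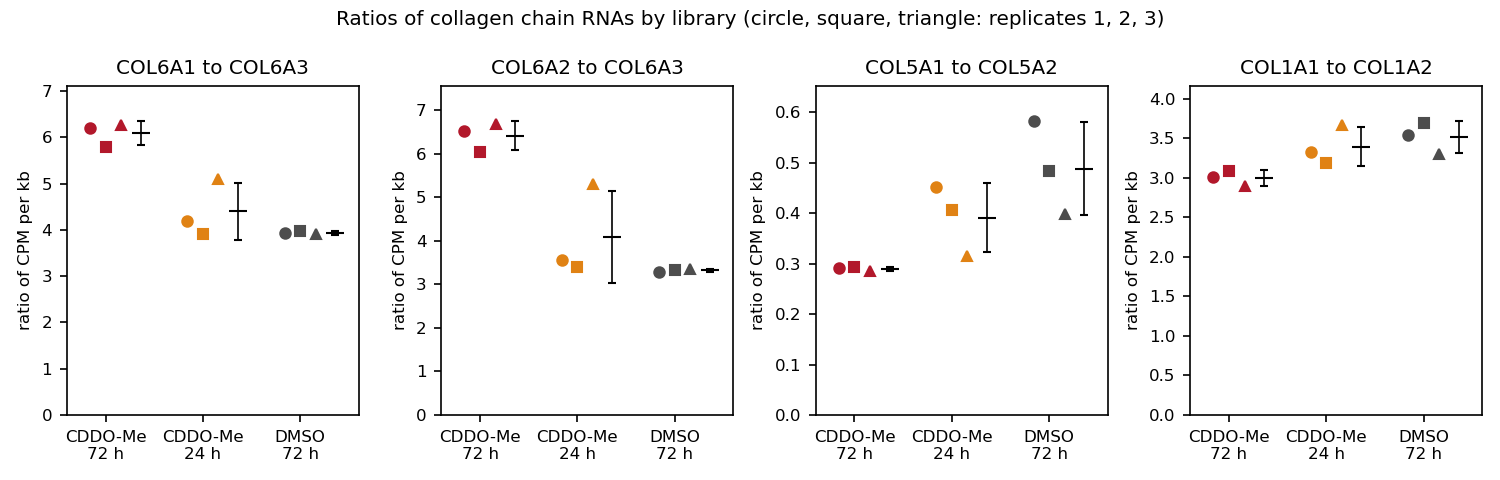
Ratio of normalised CPM per kb of 4 pairs of collagen chains in each library (circle, square and triangle for replicates 1, 2 and 3; mean and SD beside them) after CDDO-Me for 72 h, CDDO-Me for 24 h and DMSO for 72 h. COL6A1 to COL6A3 lay at 5.79 to 6.26 in all 72 h libraries, above 3.92 to 5.09 at 24 h and 3.91 to 3.98 in DMSO; 24 h replicate 3 (triangle) is the highest of its group in both type VI panels and the lowest in the type V panel.

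Between the times all type VI chains were lower at 72 h than at 24 h, without overlap between the groups. COL6A2 passed the test (1.47-fold lower, log2 −0.56 ± 0.12, adjusted p = 0.0433), while COL6A3 (−1.30 ± 0.26, adjusted p = 0.0790) and COL6A1 (−0.79 ± 0.18, adjusted p = 0.0820) did not, although their changes were larger. The call of COL6A2 held in 11 of 19 alternatives. It ended with limma-voom (0.0703) and with only the 2 groups in the fit (0.0634). Among single libraries, leaving out CDDO-Me 24 h replicate 1 or 2, DMSO replicate 2 or each one at 72 h ended it (0.0825 to 0.226). Without CDDO-Me 24 h replicate 3 all of them passed, at −0.70 ± 0.08 (COL6A2, adjusted p = 2.09e-05), −0.996 ± 0.09 (COL6A1, 8.31e-07) and −1.58 ± 0.08 (COL6A3, 7.56e-10). Groups without overlap were lower for 6 and higher for 1 of the 30 genes in this comparison, against 10.2 and 10.8% of all genes. Treatment times may also differ in time in culture here, and these cannot be told apart.

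Against DMSO, the type VI chains were higher at 24 h by values that did not pass, at 0.39 ± 0.12 for COL6A2 (adjusted p = 0.136), 0.30 ± 0.18 for COL6A1 (0.544) and 0.19 ± 0.26 for COL6A3 (0.833). Replicates 1 and 2 were above every DMSO library for each chain, and replicate 3 was below the DMSO mean for COL6A1 and COL6A3. Without replicate 3 all of them passed, at 0.53 ± 0.08, 0.51 ± 0.09 and 0.46 ± 0.08 (adjusted p = 0.000424, 0.00124 and 0.00168). The summed level of the 3 genes was 1689 ± 34.1 CPM at 72 h, 3033 ± 821 CPM at 24 h and 2478 ± 330.3 CPM in DMSO (SD, n = 3 each).

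**Figure D4:**
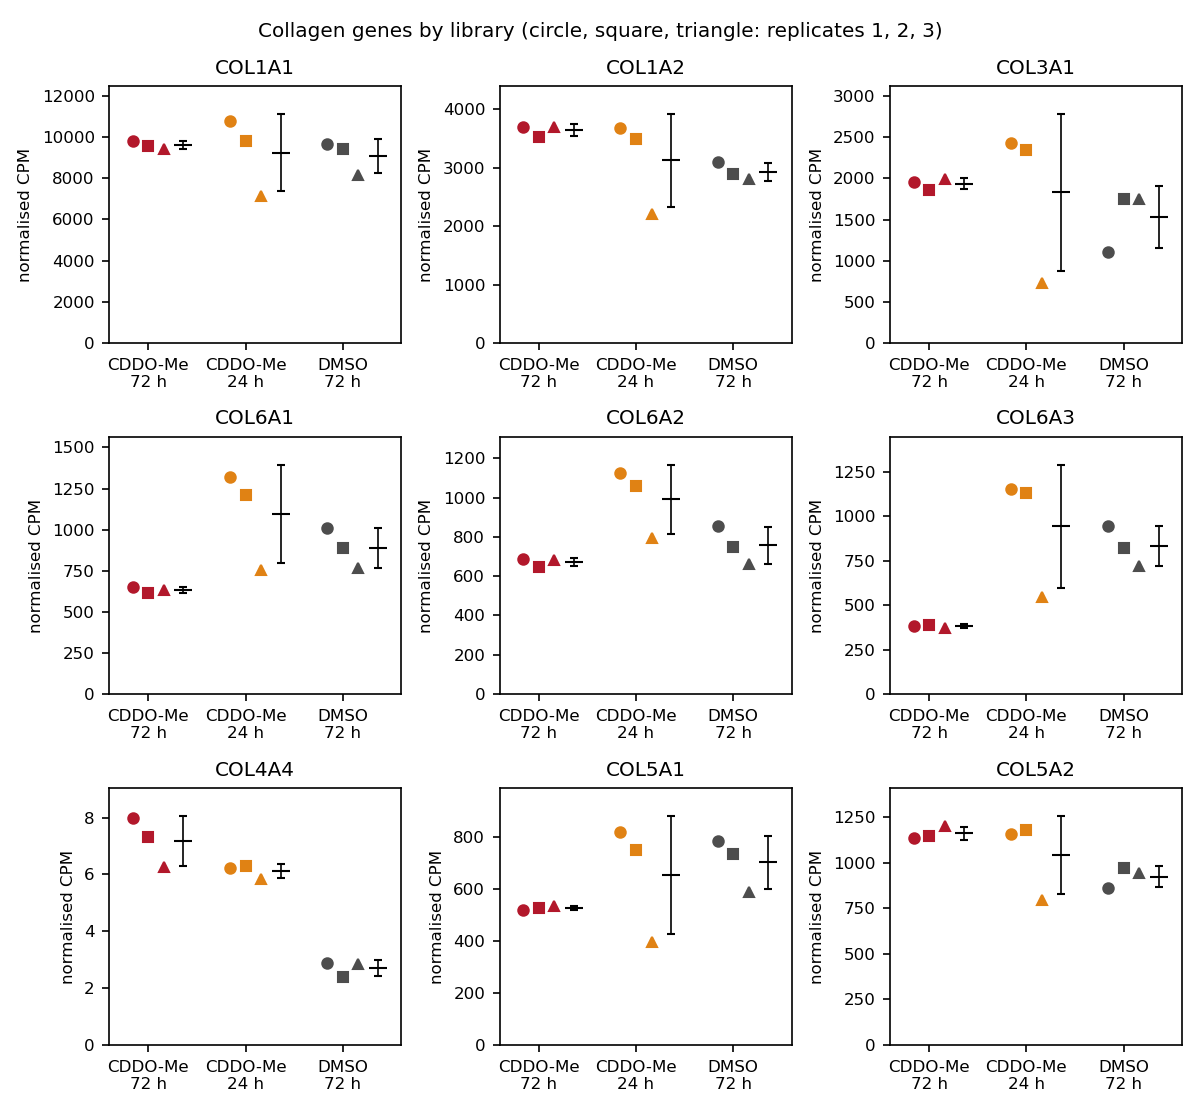
Normalised CPM of 9 collagen genes in each library (circle, square and triangle for replicates 1, 2 and 3), with mean and SD beside each group, after CDDO-Me for 72 h, CDDO-Me for 24 h and DMSO for 72 h; all axes start at 0. COL4A4 was above DMSO in all 6 treated libraries, COL6A3 was at 372 to 391 CPM in the 72 h libraries, below all others, and CDDO-Me 24 h replicate 3 (triangle) was the lowest of its group in all 9 panels.

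Type I collagen, the main fibril-forming type, did not pass in any comparison. COL1A1, the α1 chain (chr17:50183289-50201632, minus strand), stood at 9806, 9573 and 9418 CPM at 72 h, 10789.6, 9792 and 7133 CPM at 24 h, and 9653, 9414 and 8140.3 CPM in DMSO. These groups overlapped, and the log2 difference at 72 h was 0.08 ± 0.13 (adjusted p = 0.794), or 0.01 to 0.13 over the alternatives. COL1A2, the α2 chain (chr7:94394561-94431232, plus strand), stood at 3703, 3522 and 3695 CPM at 72 h, 3682, 3489 and 2212 CPM at 24 h, and 3093, 2891 and 2800.4 CPM in DMSO. All 72 h libraries were above all DMSO libraries, at 0.31 ± 0.15 (adjusted p = 0.278). Without CDDO-Me 24 h replicate 3 the difference was 0.31 ± 0.06 (adjusted p = 0.000985) at 72 h and 0.29 ± 0.06 (0.0062) at 24 h. The ratio of COL1A1 to COL1A2 per kb was 3.01, 3.09 and 2.90 at 72 h, 3.33, 3.19 and 3.66 at 24 h, and 3.55, 3.70 and 3.30 in DMSO, so the 72 h libraries were below all others.

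COL3A1, the chain of type III collagen that is laid down together with type I, varied widely within groups. It stood at 1960.2, 1861 and 1989 CPM at 72 h, 2425, 2342 and 734 CPM at 24 h, and 1101, 1754 and 1748 CPM in DMSO. CDDO-Me 24 h replicate 3 and DMSO replicate 1, the libraries that stood apart, were the lowest of all. The same libraries were also the lowest of all for the fibroblast markers DCN and LUM, whose part was not tested. At 72 h the difference was 0.34 ± 0.43 (adjusted p = 0.757), and 0.14 ± 0.05 without both of these libraries (adjusted p = 0.0573). At 24 h it was 0.26 ± 0.43 (adjusted p = 0.868), and 0.44 ± 0.06 without them (adjusted p = 1.18e-06). Its neighbour COL5A2, which ends 19149 bases away on the other strand, held 1139, 1147 and 1202 CPM at 72 h, 1158, 1181 and 799 CPM at 24 h, and 859.6, 971 and 945 CPM in DMSO.

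COL5A1 and COL5A2 encode the α1 and α2 chains of type V collagen, which sits inside type I fibrils and limits their width. COL5A2 was above DMSO in all 72 h libraries (0.33 ± 0.12, adjusted p = 0.143). COL5A1, at 519, 525 and 535 CPM at 72 h, 818, 749 and 395 CPM at 24 h, and 782, 734 and 589 CPM in DMSO, was below DMSO in all of them (−0.41 ± 0.24, adjusted p = 0.423). With CDDO-Me 24 h replicate 3 left out, both passed at 72 h in opposite directions, at 0.33 ± 0.06 (COL5A2, adjusted p = 0.000778) and −0.41 ± 0.08 (COL5A1, adjusted p = 0.00291). Their ratio, COL5A1 to COL5A2 per kb, was 0.291, 0.293 and 0.284 at 72 h, 0.452, 0.406 and 0.316 at 24 h, and 0.582, 0.483 and 0.398 in DMSO. The 72 h libraries were below all others, while the ranges at 24 h and in DMSO overlapped.

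COL5A3, the α3 chain of type V, was a minor gene with 1.41, 1.38 and 1.55 CPM at 72 h, 0.64, 0.405 and 0.512 CPM at 24 h, and 0.465, 0.469 and 0.919 CPM in DMSO. All 72 h libraries were above all others. The log2 fold change was 1.21 ± 0.37 against DMSO (adjusted p = 0.0766) and 1.47 ± 0.38 against 24 h (adjusted p = 0.0934), and with at most 29 counts in a library it passed in 4 of 19 and 3 of 18 alternatives. COL11A1, an α chain of type XI, a type V relative best known from cartilage, stood at 31.5, 30.2 and 29.4 CPM at 72 h, 44.1, 41.2 and 17.3 CPM at 24 h, and 36.9, 36.8 and 34.2 CPM in DMSO. Its 72 h libraries were below the DMSO libraries, and 24 h replicate 3 was the lowest of all (−0.24 ± 0.29 at 72 h, adjusted p = 0.737).

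The remaining fibril-forming genes, COL11A2, COL24A1 and COL27A1, had adjusted p of 0.637 to 0.902 at 72 h. COL24A1 was higher at 24 h without overlap (2.04, 2.18 and 2.45 CPM, against 1.40, 1.09 and 1.64 CPM in DMSO) but did not pass (0.69 ± 0.28, adjusted p = 0.285), nor did COL27A1 at 0.41 ± 0.19 (adjusted p = 0.405). COL27A1 held 28.4, 29.2 and 19.0 CPM at 24 h and 25.2, 17.1 and 15.1 CPM in DMSO, and passed without CDDO-Me 24 h replicate 3 (0.59 ± 0.16, adjusted p = 0.0315).

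Among collagens that sit on fibrils, COL12A1, COL16A1, COL9A2 and COL14A1 were measured and none passed. COL12A1, the chain of type XII, held 679, 697 and 654 CPM at 72 h, 769.6, 778 and 469.9 CPM at 24 h, and 433, 676 and 612 CPM in DMSO (0.24 ± 0.21 at 72 h, adjusted p = 0.606). Its lowest libraries were again DMSO replicate 1 and CDDO-Me 24 h replicate 3, which were also the lowest for DCN and LUM. COL16A1, the chain of type XVI, held 57.0, 55.9 and 56.8 CPM at 72 h, 73.8, 70.4 and 32.1 CPM at 24 h, and 57.2, 45.4 and 44.6 CPM in DMSO. It passed at 24 h only when replicate 3 was left out or given less weight (0.55 ± 0.10 without it, adjusted p = 0.00111). COL9A2, a type IX chain, was above DMSO at 72 h in all libraries (6.98, 7.48 and 8.76 CPM, against 5.69, 6.67 and 5.18 CPM; 0.41 ± 0.20, adjusted p = 0.296). COL14A1, the chain of type XIV, was under 1 CPM throughout.

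COL8A1, the α1 chain of the short chain type VIII collagen, varied little between libraries. It held 299, 303 and 312 CPM at 72 h, 301, 295 and 296 CPM at 24 h, and 284, 269 and 271 CPM in DMSO, and the treated libraries were all above the DMSO libraries. The differences were small and did not pass (0.15 ± 0.07 at 72 h, adjusted p = 0.229; 0.11 ± 0.07 at 24 h, adjusted p = 0.522). Its partner COL8A2 held 11.2, 9.29 and 8.60 CPM at 72 h, 14.0, 13.2 and 6.76 CPM at 24 h, and 9.92, 9.63 and 9.77 CPM in DMSO. COL10A1, known from growing cartilage, had 0, 2 and 3 counts at 72 h, 7, 14 and 10 counts at 24 h, and 5, 12 and 7 counts in DMSO. Every 72 h library was below every other. All its libraries with 10 or more counts were at 24 h or in DMSO. COL10A1 thus passed the minimum only through the groups where it was higher, and its lower level at 72 h is no independent result. The gene was too low for the test with all libraries, and without CDDO-Me 24 h replicate 3 it was at −2.62 ± 0.80 between the times.

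COL7A1, whose protein anchors epithelia to the dermis, held 50.9, 52.5 and 51.3 CPM at 72 h, 89.7, 88.4 and 49.7 CPM at 24 h, and 69.9, 46.8 and 34.5 CPM in DMSO. The DMSO range covered the 72 h libraries (0.03 ± 0.29, adjusted p = 0.970), and at 24 h the value was 0.59 ± 0.29 (adjusted p = 0.468), or 1.13 ± 0.09 without both libraries that stood apart (adjusted p = 2.79e-10). COL13A1, a transmembrane collagen of cell adhesion sites, held 13.6, 13.6 and 15.3 CPM at 72 h, 25.2, 22.4 and 25.1 CPM at 24 h, and 42.4, 21.4 and 16.9 CPM in DMSO. It was lower at 72 h than in every other library, but DMSO replicate 1 was far above its group, and −0.92 ± 0.29 did not pass (adjusted p = 0.116). Without DMSO replicate 1 the value was −0.43 ± 0.13 (adjusted p = 0.0852). Between the times it was −0.77 ± 0.29 (adjusted p = 0.307), and −0.77 ± 0.12 without DMSO replicate 1 (adjusted p = 0.00515).

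Of the multiplexins, COL18A1, whose C-terminal fragment is endostatin, held 39.7, 44.8 and 45.7 CPM at 72 h, 47.0, 46.9 and 41.8 CPM at 24 h, and 60.8, 43.5 and 34.8 CPM in DMSO, with overlapping groups (−0.10 ± 0.16 at 72 h, adjusted p = 0.811). It shares 1401 exon bases, 16.4% of its own, with SLC19A1 on the opposite strand, and since the libraries keep no strand, reads in that stretch cannot be told apart. COL15A1 and the transmembrane COL17A1 were mostly under 1 CPM, with at most 26 and 24 counts in a library. COL15A1 was at −0.07 ± 0.58 and COL17A1 at −0.56 ± 0.73 at 72 h (adjusted p = 0.967 and 0.754). In all, 8 collagen genes were higher and 6 lower at 72 h without overlap with DMSO, against 15.5 and 15.2% of all genes, and 3 and 0 at 24 h, against 6.73 and 6.74%.

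Genes that make, cut, cross-link and bind collagen were read from 8 lists with 68 genes, of which 61 were tested. At 72 h 2 rose and 7 fell (background 2.89 and 3.13% of all genes), and the median was −0.09. At 24 h 2 rose and 1 fell (background 0.969 and 1.18%), with a median of 0.08, and between the times 0 were called in either direction (background 0.448 and 0.568%; median −0.16; at an unadjusted p under 0.05 there were 1 higher and 14 lower, and DESeq2 called 0 and 3). With CDDO-Me 24 h replicate 3 left out, the counts were 3 higher and 17 lower at 72 h (background 6.26 and 6.62%), 12 and 3 at 24 h (5.71 and 5.11%), and 0 and 26 between the times (5.19 and 6.84%). With all libraries, the shares of all genes given here also apply to the called counts of each single list below. Here and for the single lists below, no share of all genes stands beside the counts at an unadjusted p or with DESeq2. Those counts therefore do not compare the lists with all genes. These lists were drawn up with earlier results of the same libraries known, LOX and TIMP3 among them.

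Among cross-linking enzymes, 2 of 5 fell at 72 h and 0 rose, and none passed at 24 h (1 higher and 2 lower at an unadjusted p under 0.05, 0 and 0 with DESeq2). LOX, lysyl oxidase, which starts the covalent bonds between collagen molecules, held 156, 168 and 159 CPM at 72 h, 189, 204 and 258 CPM at 24 h, and 299.7, 251 and 236 CPM in DMSO. Every 72 h library was below all others. It fell by 0.70 ± 0.11 on the log2 scale at 72 h (adjusted p = 0.00173) and was at −0.27 ± 0.11 at 24 h (adjusted p = 0.309). The 72 h call held in 19 of 19 alternatives. LOXL2, a relative of LOX that acts on basement membrane collagen, held 514, 514 and 507 CPM at 72 h, 749, 720.4 and 476 CPM at 24 h, and 807, 784 and 788 CPM in DMSO. It fell by 0.63 ± 0.13 (adjusted p = 0.0118), which was lost when any 72 h library was left out (0.0531 to 0.0577). CDDO-Me 24 h replicate 3 was lower still than the 72 h libraries. LOXL4 was at −1.19 ± 0.53 (adjusted p = 0.288) and LOXL3 at 0.21 ± 0.14 (0.479), and neither passed.

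Of 9 tested genes for cleavage and uptake, TIMP3 fell at both times and 0 rose. TIMP3, an inhibitor of metalloproteinases that is bound to the matrix, held 151, 141 and 154 CPM at 72 h, 207, 197 and 159 CPM at 24 h, and 376, 321 and 296 CPM in DMSO. All treated libraries were below all DMSO libraries. The log2 change was −1.16 ± 0.11 at 72 h (adjusted p = 1.5e-05) and −0.82 ± 0.11 at 24 h (adjusted p = 0.000685), and both calls held in 19 of 19 alternatives. The membrane collagenase MMP14 was at 0.04 ± 0.10 at 72 h (adjusted p = 0.893) and 0.27 ± 0.10 at 24 h (0.230), and TIMP1 and TIMP2 did not pass. The collagenases MMP1, MMP8 and MMP13 were too low to test.

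Propeptides of fibrillar collagens are removed by ADAMTS and BMP1-type proteases, and of 6 tested genes of that list 1 rose and 1 fell at 72 h. PCOLCE2, an enhancer of the C-propeptide protease, held 17.7, 19.9 and 19.3 CPM at 72 h, 14.0, 15.5 and 19.5 CPM at 24 h, and 11.9, 10.2 and 10.4 CPM in DMSO. All treated libraries were above DMSO, at 0.81 ± 0.14 at 72 h (adjusted p = 0.00246, held in 19 of 19 alternatives) and 0.60 ± 0.14 at 24 h (adjusted p = 0.0346, held in 12 of 19). The 24 h call was lost with only the 2 groups in the fit (0.161), and also without CDDO-Me 24 h replicate 2, DMSO replicate 2 or 3, or any 72 h library (0.0655 to 0.183). ADAMTS2, which removes N-propeptides, held 52.0, 53.4 and 48.0 CPM at 72 h, 68.0, 60.7 and 47.7 CPM at 24 h, and 87.0, 70.7 and 66.0 CPM in DMSO. It fell by 0.54 ± 0.13 at 72 h (adjusted p = 0.0219), which was lost when any 72 h library, or DMSO replicate 1 or 2, was left out (0.0568 to 0.119). BMP1 was at −0.25 ± 0.17 (adjusted p = 0.478).

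Enzymes that modify collagen chains inside the cell did not pass: 0 of 10 for prolyl hydroxylation and 0 of 5 for lysyl hydroxylation and glycosylation in either comparison with DMSO. Of all genes 2.89% were called higher and 3.13% lower at 72 h, and 0.969 and 1.18% at 24 h. Against these shares, 0 calls in lists this short do not set the enzymes apart. At an unadjusted p under 0.05 there were 2 lower for prolyl hydroxylation at 72 h and 0 otherwise, and DESeq2 called 1 lower at 72 h. The smallest adjusted p among them was 0.0784, for the prolyl 4-hydroxylase subunit P4HA2 at 72 h (−0.31 ± 0.10). P4HB, the shared subunit of that enzyme, held 833, 825 and 819 CPM at 72 h, 915, 864 and 783 CPM at 24 h, and 894, 732 and 796 CPM in DMSO, and overlapped throughout. Of 11 chaperone and export genes 1 rose and 1 fell at 72 h. FKBP9, a prolyl isomerase of the endoplasmic reticulum, rose by 0.37 ± 0.08 (adjusted p = 0.0145), and SEC23A, a coat protein of export vesicles, fell by 0.30 ± 0.08 (adjusted p = 0.0370). They held in 15 and 13 of 19 alternatives. Both were lost when any 72 h library or DMSO replicate 2 was left out, and SEC23A also when this was done with DMSO replicate 3 or with replicate 2 of the 24 h group (0.0569 to 0.199 for SEC23A, 0.0682 to 0.0855 for FKBP9). SERPINH1, the collagen chaperone HSP47, was at 0.05 ± 0.11 at both times (adjusted p = 0.869 and 0.907).

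Among 7 collagen receptors, ITGA2, the α2 integrin subunit that binds type I collagen, fell at 72 h. It held 15.7, 14.3 and 14.5 CPM at 72 h, 27.2, 31.1 and 21.5 CPM at 24 h, and 40.7, 24.4 and 23.3 CPM in DMSO, so the 72 h libraries were below all others. The log2 change was −0.99 ± 0.20 (adjusted p = 0.0134, and 0.0524 to 0.0678 when a 72 h library was left out), and without DMSO replicate 1 it was smaller, at −0.68. The β1 subunit ITGB1, with which the collagen-binding integrins pair, was at −0.28 ± 0.10 (adjusted p = 0.140). The α10 and α11 subunits ITGA10 and ITGA11 were at −1.23 ± 0.48 and −0.41 ± 0.15 (adjusted p = 0.167 and 0.145). Of 8 tested genes for proline and glycine supply, ALDH18A1, which makes the precursor of proline, fell by 0.37 ± 0.08 at 72 h (adjusted p = 0.0103). It held in 15 of 19 alternatives and was lost when any 72 h library or DMSO replicate 2 was left out (0.0531 to 0.0675). PSAT1, a serine synthesis enzyme, rose by 0.46 ± 0.11 at 24 h (adjusted p = 0.0446), which held in 7 of 19 alternatives; of the settings that leave out 1 library, only the one without CDDO-Me 24 h replicate 3 kept it (0.0661 to 0.198 in the others).

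**Figure D5:**
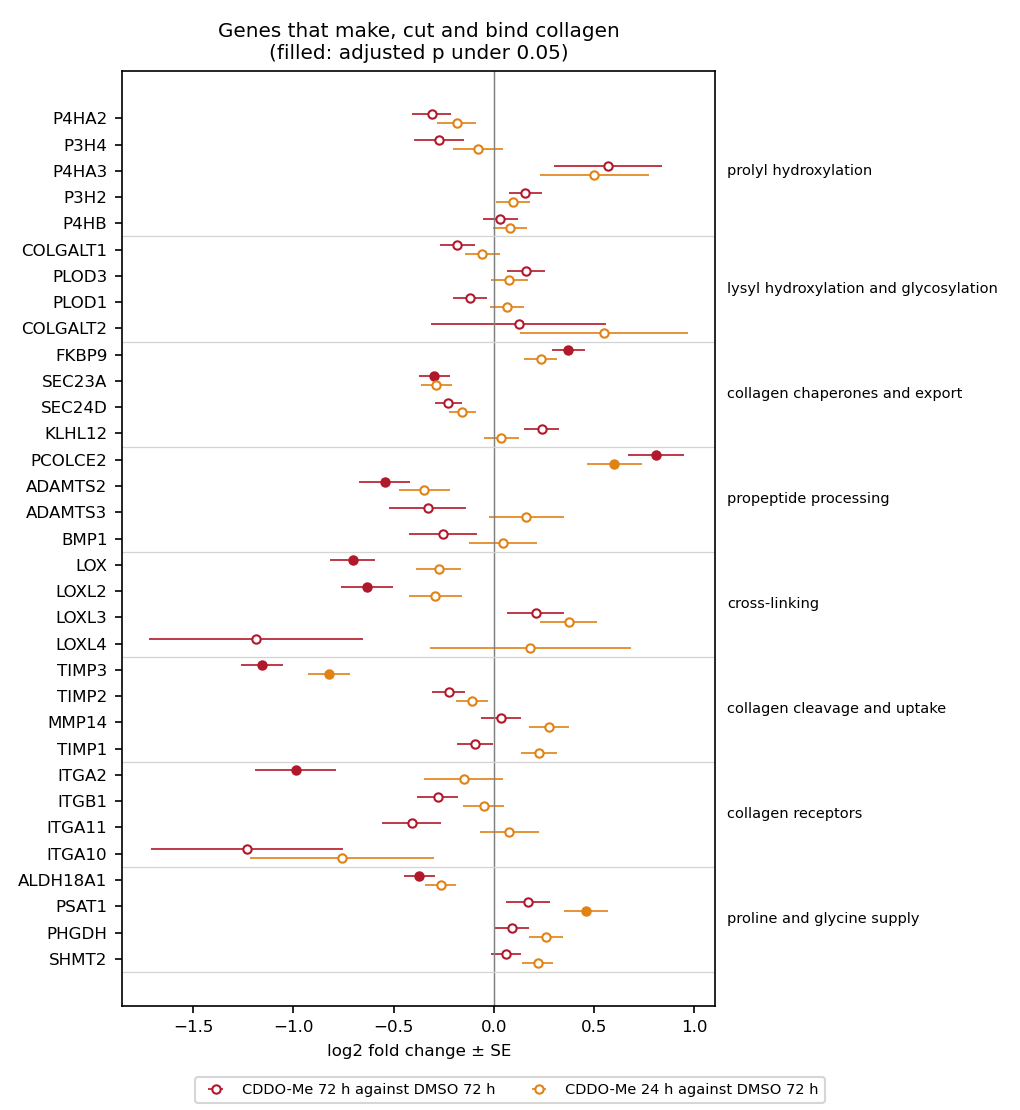
Log2 fold changes against DMSO (points, with SE as bars) of the named genes of 8 lists of collagen production, cleavage and binding, after CDDO-Me for 72 h and for 24 h; filled points had an adjusted p under 0.05. TIMP3, LOX, LOXL2 and ITGA2 lie left of 0 with filled 72 h points, PCOLCE2 lies right of 0 with both points filled, and the hydroxylation lists have none filled.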

How the data were processed

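Polyadenylated RNA of 9 AC16 samples was sequenced from libraries that keep no strand, per the labels' protocols. The authors deposited whole-number read counts per Ensembl gene, with no normalization, and each gene's exon length. Reads were aligned and counted with tools among which the submitters' processing notes list featureCounts, Subread, SAMtools and STAR, with the builds GRCh38 and hg38. Their versions and settings: not given in the sources used here. Titles say CDDO in places where the treatment label says CDDO-Me, which was followed. No label calls the replicates separate cultures; p-values then measure only how these 9 samples vary, which may be technical variation.

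Genes with enough counts for the design (edgeR 4.0.16 filterByExpr, 14965 genes) were scaled by TMM and tested with edgeR's robust quasi-likelihood test over all 9 libraries with a mean per group. P-values were Benjamini-Hochberg adjusted over all tested genes, and 0.05 was the threshold. The SE is the log2 fold change over the root of F. The test was tested on simulated data. Symbols came from a table that named 57717 gene IDs. The alternatives were DESeq2 1.42.0, limma-voom 3.58.1 with and without sample weights, other scalings and filters, a replicate block, fewer groups and left-out libraries. The smallest chi-square between replicates was 2.09 per degree of freedom, more than counting error alone gives. No libraries were therefore taken as copies of each other, and all count singly. This does not show that they came from separate cultures. Every gene above the minimum is named, and of each list up to 4 genes with the smallest adjusted p against DMSO, plus the most expressed where none passed; SERPINH1 was added after its values were seen. Members and lists were chosen with earlier results of these data known. Counting error limits genes under about 10 counts.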

Additional observations from a re-analysis of the deposited data

Results flagged for a closer look

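COL6A2 differed between the 2 treatment times: the log2 fold change of CDDO-Me 72 h over CDDO-Me 24 h was −0.56 ± 0.12 (edgeR quasi-likelihood test, adjusted p = 0.0433), which is also the test of the difference between its effects against DMSO, −0.17 at 72 h and 0.39 at 24 h. All 3 libraries at 72 h were below all 3 at 24 h. The call held in 11 of 19 alternatives, with an adjusted p of up to 0.226 among them. Neither effect against DMSO passed in edgeR's test (adjusted p = 0.504 at 72 h and 0.136 at 24 h). The times may also differ in hours of culture, and the part of that was not tested.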

How the results depend on the processing

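The log2 fold changes called here kept their sign under all 19 alternatives. COL4A4 stayed past the threshold in each, while 18 values of COL6A3 and COL6A2 did not. Over the 90 pairs of a gene and a comparison, 116 of 1688 values newly passed, 61 of them without CDDO-Me 24 h replicate 3 alone or with DMSO replicate 1, and 96 values in 31 pairs changed sign.

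Counts of collagen genes called higher and lower at 72 h (1 and 1 as reported) were 1 and 3 with DESeq2, 7 and 6 without the pair of libraries that stood apart, 1 and 0 with limma-voom, 5 and 5 with sample weights, 3 and 2 with no filter, 4 and 4 with only the 2 groups, 1 and 3 with a replicate block, and 1 and 0 with upper quartile factors. Leaving out single libraries gave 1 to 4 and 0 to 4. At 24 h (1 and 0) they were 2 and 0 with DESeq2, with no filter and with the block, 18 and 0 without the pair, 9 and 0 with sample weights, and 1 to 10 and 0 without single libraries. Between the times (0 and 1) they were 0 and 3 with DESeq2, 1 and 17 without the pair, 0 and 0 with limma-voom, 1 and 12 with sample weights, 0 and 2 with no filter and with the block, and 0 to 1 and 0 to 9 without single libraries. At 72 h or between the times the cause of these shifts was not tested. Shares of all genes are given above only for all libraries and for leaving out CDDO-Me 24 h replicate 3, DMSO replicate 1 or both. For the other settings no share stands beside the counts, so they do not compare the collagen genes with all genes. Deviations of same-numbered libraries of different groups correlated by −0.0179 to 0.0963. The highest values were those of 24 h against DMSO, for replicates 1 (0.0963) and 3 (0.0843). Such small correlations cannot tell whether same-numbered libraries share a batch. The main test took them as unpaired, and the replicate block is among the alternatives.

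Signs changed at 24 h against DMSO without the pair and with sample weights for COL11A1 (0.26 and 0.14), COL4A2 (0.20 and 0.0788) and COL5A1 (0.24 and 0.10). Between the times they changed in the same settings for COL12A1 (−0.19 and −0.15, and −0.0065 with upper quartile factors) and COL3A1 (−0.30 and −0.20). Without the pair these 5 values of the other sign also passed the threshold (adjusted p = 0.0343 for COL11A1, 0.0310 for COL4A2, 0.0144 for COL5A1, 0.0106 for COL12A1 and 7.97e-05 for COL3A1). With limma-voom COL11A1 was at 0.00818 and COL16A1 at 0.0777 between the times, and COL16A1 at 0.0122 with the replicate block. Without single libraries the 24 h values ran from −0.31 to 0.24 (COL11A1), −0.0388 to 0.29 (COL1A2), −0.16 to 0.14 (COL4A2) and −0.29 to 0.16 (COL5A1). Between the times they ran from −0.49 to 0.0666 (COL11A1), −0.19 to 0.14 (COL12A1), −0.35 to 0.15 (COL16A1), −0.30 to 0.33 (COL3A1) and −0.24 to 0.0633 (COL4A5).

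Genes under 1 CPM had few counts in these libraries, so for them a p above the threshold means only that no difference was detectable at this depth.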
